A study of Mus musculus with 39 samples.

Results

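The genes described here make, sense, take up and export cholesterol. They are 29 genes chosen by name and found by symbol in GENCODE release M21, out of 55487 gene identifiers in the deposited table. The rule uses no measured value. They comprise 18 enzymes of synthesis, 5 genes of sterol sensing, 2 genes of uptake and transfer, and 4 genes of efflux. In all, 28 of the 29 passed the filter on low counts, as did 13420 genes of the whole table, and Nr1h3 did not.

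Microglia were isolated from striatum of 8 to 10 week old males (mouse) and sorted as live cells positive for CD11b and P2RY12 and low for CD45. Lipopolysaccharide (LPS), an outer membrane molecule of bacteria that sets off immune responses, had been injected into the peritoneum at 4500 endotoxin units per gram body weight, and cells were taken at 18 hours. Saline (SAL) was the control. Each mouse carried a prenatal term, CON (control) or MIA (maternal immune activation), and a further term, CON or PLX, which the labels leave undefined. An arm is written as its prenatal term, a colon and its PLX term. The 8 groups held 4 libraries each of CON_CON_SAL, CON_CON_LPS, MIA_CON_SAL and CON_PLX_SAL, 3 of MIA_PLX_SAL, and 6 each of MIA_CON_LPS, CON_PLX_LPS and MIA_PLX_LPS. All animals shared the sex, the age range, the dissection and the sort, and the labels used here name no strain or genotype. The anterior, dorsal and ventral pieces of striatum were pooled.

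Cells build cholesterol from acetyl-CoA through mevalonate, isoprenoids, squalene and lanosterol. When membranes of the endoplasmic reticulum are low in sterol, Scap escorts the transcription factors encoded by Srebf1 and Srebf2 (the SREBPs) to the Golgi, where they are cut and released to switch on synthesis and uptake genes, while the Insig proteins hold them back when sterol is plentiful. Oxysterols activate the liver X receptors, encoded by Nr1h2 and Nr1h3, which raise the exporters Abca1 and Abcg1 and the ubiquitin ligase Mylip, which sends lipoprotein receptors for degradation. Microglia take up myelin and lipoprotein cholesterol and pass it on through these exporters.

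Library totals ran from 1510020 to 5746239 counts. Mitochondrial ribosomal RNA took on average 11.7% of counts after saline and 15.9% after LPS. The sort was checked on 8 microglial markers, whose summed level ran from 15100 to 18400 CPM (counts scaled to the library's size) after saline and from 6720 to 14200 after LPS. Of these, P2ry12, which the sort used as a protein, and Tmem119 fell with LPS in all 4 arms, P2ry12 by 2.19 to 3.25 and Tmem119 by 1.23 to 1.93 on the log2 scale, while Itgam, which encodes CD11b, passed the test in none (log2 change -0.12 to 0.19). In bulk RNA, fewer cells of a type and less RNA per cell cannot be told apart. Nothing in the labels ties a replicate to a mouse of its own, and the p-values therefore cover only how far these libraries scatter, part of which may be technical.

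MIA_PLX_SAL replicate 1 and CON_CON_LPS replicate 3 carry a mark of exclusion in their titles, and both were left out. The library labelled MIA_CON_LPS replicate 6, which was kept, had nearly the same counts as the marked MIA_PLX_SAL replicate 1: chi-square divided by its degrees of freedom was 1.53, the smallest value among 741 library pairs, and 2.42 in the second closest pair. Its P2ry12 level was 1780 CPM, against 240 to 444 in the other 5 libraries of its group, 154 to 444 in the other 21 LPS libraries and 2070 to 2880 in the 15 saline libraries, so that it lay nearer to saline than to LPS. Whether it is mislabelled, or shares its source with the marked library, was not tested. Without it, the same 6 members were called higher and the same 1 lower in MIA:CON as with it. With both marked libraries included, the calls of Mvd in 3 arms, Pmvk in MIA:CON and Stard4 in MIA:PLX were lost, while Insig1 was called higher in CON:PLX. Further, CON_CON_LPS replicate 1, CON_PLX_LPS replicate 1 and MIA_CON_LPS replicate 1 deviated together from their group means over all genes (pairwise r 0.62 to 0.66), and results that rest on them are given with and without them.

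Pmvk (phosphomevalonate kinase), Hsd17b7 (a sterol ketoreductase) and Sqle (squalene epoxidase) rose with LPS in all 4 arms, as did 984 of all 13420 tested genes. Of the 28 tested members, 8 rose and 0 fell in CON:CON, where 13.7% of all tested genes were called higher and 9.84% lower. In MIA:CON, 6 rose and 1 fell, beside 14.5% higher and 10.9% lower among all genes. In CON:PLX, 6 rose and 0 fell, beside 17.5% and 14.0%, and in MIA:PLX, 8 rose and 0 fell, beside 11.8% and 10.4%. In the same order of arms, the median log2 change was 0.45, 0.36, 0.51 and 0.53 over the 28 members and 0.06, 0.03, 0.03 and 0.04 over all tested genes. Of the 18 synthesis enzymes, 7, 3, 5 and 5 rose (38.9%, 16.7%, 27.8% and 27.8%) and 0 fell, and the share in MIA:CON is near the 14.5% of all genes. Another 11 members were called in 1 to 3 arms and 14 tested members in none. Calls are at an adjusted p under 0.05 in edgeR's quasi-likelihood test, adjusted over all tested genes.

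**Figure D1:**
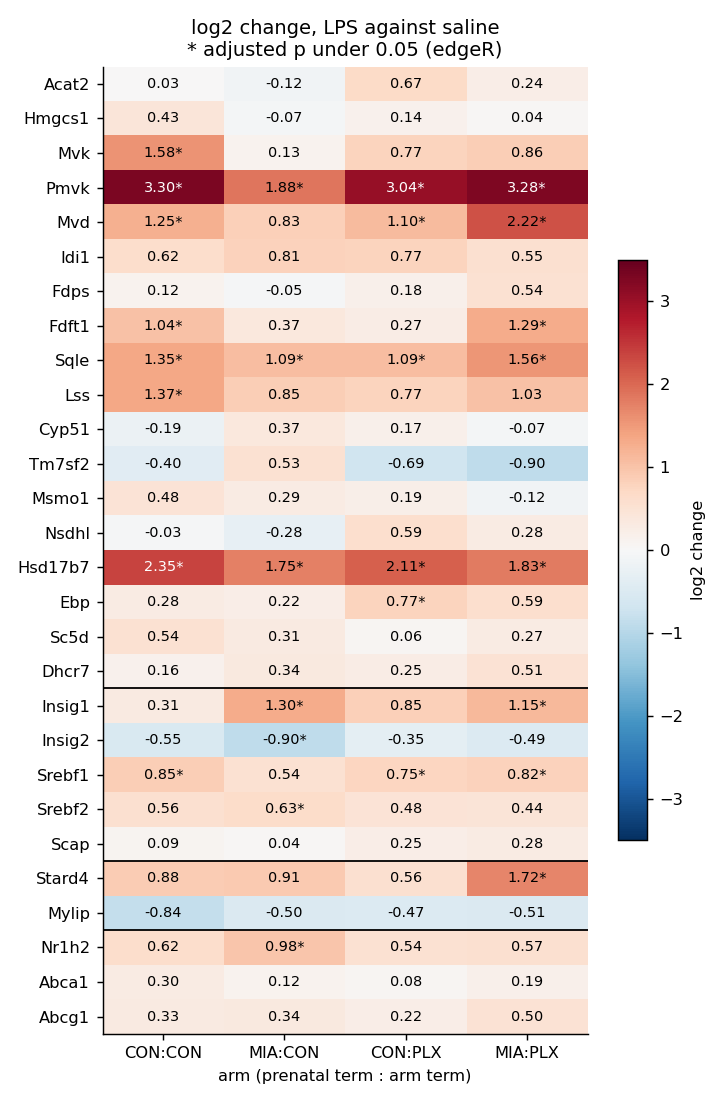
Log2 change after LPS against saline for the 28 tested members (rows, grouped by role with black lines between synthesis, sensing, uptake and efflux) in the 4 arms (columns). A star marks an adjusted p under 0.05, and the rows of Pmvk, Sqle and Hsd17b7 carry a star in every column.

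The promoter windows of 5 members are shown because SREBPs act at sterol response elements near start sites, usually beside a CCAAT box bound by NF-Y. RefSeq windows (GRCm38.p6, 250 bases before to 50 after each start site) were found for 24 of the 29 members, 33 windows in all. No window was found for Fdps, Fdft1, Sqle, Stard4 and Abcg1, so the motif counts below do not cover them. Only the first window of a gene is printed, and the second window of Pmvk held 0 CCAAT boxes. The bases before the start, less any that GENCODE M21 puts inside the gene, are printed 5′ to 3′ on the gene's strand, and capitals mark a sterol response element core (TCACNCCAC) or a CCAAT box (CCAAT, or ATTGG where it lies on the other strand). Pmvk is on the plus strand at chr3:89454291-89454540, Lss on plus at chr10:76531355-76531587, Hsd17b7 on minus at chr1:169969242-169969455, Mvd on minus at chr8:122443423-122443672 and Hmgcs1 on plus at chr13:119690101-119690350.
Pmvk: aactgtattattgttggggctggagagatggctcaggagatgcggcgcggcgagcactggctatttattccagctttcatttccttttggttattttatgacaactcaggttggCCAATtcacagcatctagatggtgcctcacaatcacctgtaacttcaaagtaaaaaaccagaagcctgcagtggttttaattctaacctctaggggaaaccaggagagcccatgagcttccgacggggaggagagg
Lss: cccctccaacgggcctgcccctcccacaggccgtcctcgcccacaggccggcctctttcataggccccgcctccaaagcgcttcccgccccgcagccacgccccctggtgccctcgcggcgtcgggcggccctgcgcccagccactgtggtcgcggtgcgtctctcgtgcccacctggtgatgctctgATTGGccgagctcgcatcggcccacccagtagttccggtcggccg
Hsd17b7: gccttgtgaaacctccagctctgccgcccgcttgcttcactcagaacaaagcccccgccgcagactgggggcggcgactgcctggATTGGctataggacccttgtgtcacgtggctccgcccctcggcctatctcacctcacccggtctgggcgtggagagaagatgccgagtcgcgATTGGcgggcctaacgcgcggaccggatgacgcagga
Mvd: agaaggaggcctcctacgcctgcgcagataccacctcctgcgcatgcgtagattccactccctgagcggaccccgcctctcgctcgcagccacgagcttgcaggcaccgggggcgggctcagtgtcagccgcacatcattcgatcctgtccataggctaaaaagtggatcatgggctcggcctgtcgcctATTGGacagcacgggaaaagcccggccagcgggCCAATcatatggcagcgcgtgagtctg
Hmgcs1: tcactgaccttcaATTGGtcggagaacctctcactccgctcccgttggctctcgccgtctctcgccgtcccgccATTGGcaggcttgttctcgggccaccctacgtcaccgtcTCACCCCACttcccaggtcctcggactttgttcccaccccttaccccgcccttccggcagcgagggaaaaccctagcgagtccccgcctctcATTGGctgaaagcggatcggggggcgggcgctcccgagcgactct
Among these, Pmvk, Lss, Hsd17b7 and Mvd are called in at least 1 arm, and Hmgcs1 is called in none. Control of these genes by SREBPs was not tested. The sterol response element core, searched on both strands over the whole window, stood in 1 of the 33 member windows (3.03%), that of Hmgcs1, and in 1.24% of all 32851 windows. A CCAAT box stood in 60.6% of member windows, in 37.4% of all windows and in 37.7% of windows of tested genes. The E-box CACGTG, another element that SREBPs can bind, stood in 21.2%, 7.15% and 9.95%; motifs were counted separately and may overlap. A paired AGGTCA repeat with 4 bases between the copies, the liver X receptor element, stood in 0 member windows and in 0.0152% of all. A match is only a match of letters, and a missing one says only that these letters are not in this window.

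Before LPS, the exporters and Mylip stood far above the synthesis enzymes. Levels between genes are compared as CPM per kb of exon, over the 15 saline libraries. The exon length joins all annotated exons of a gene (10787 bases for Lss). It can exceed the length of the transcripts in use, which would place a gene too low in the order. Mylip had the highest level, 75.6 ± 11.4 CPM per kb (SD, n = 15), followed by Abca1 at 49.6 ± 4.02 and Abcg1 at 20.9 ± 1.79, and the ranges of these 3 did not overlap. The next were the sterol sensors Insig2 at 7.15 ± 0.834 and Insig1 at 4.97 ± 1.29, whose ranges overlapped. Every enzyme of synthesis lay below 4 CPM per kb on average, from Ebp at 3.94 ± 0.985 and Hmgcs1 at 3.88 ± 0.629 down to Idi1 at 0.746 ± 0.245 and Sqle at 0.584 ± 0.197. Neighbours in this lower part of the order did not differ beyond their spread. The lowest were the sterol carrier Stard4 at 0.396 ± 0.24 and Nr1h3 (liver X receptor alpha) at 0.198 ± 0.223, whose counts were 0 to 6 per saline library. Nr1h2, the beta receptor, stood at 4.76 ± 0.973. After LPS, Pmvk was the highest enzyme on this scale, at 14.0 ± 11.4 CPM per kb (SD, n = 22), against 1.90 ± 0.641 after saline.

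**Figure D2:**
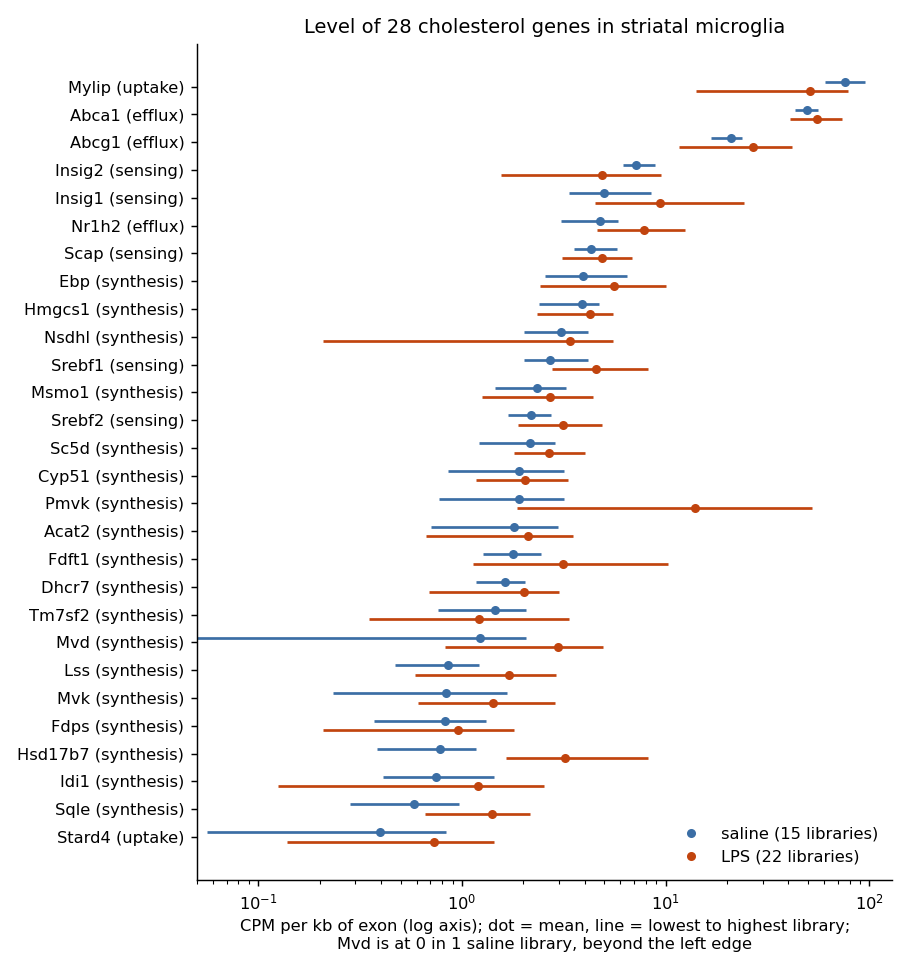
Level of the 28 tested members in CPM per kb of exon on a log axis, ordered by the saline mean. Dots are means over 15 saline (blue) or 22 LPS (red) libraries, and lines run from the lowest to the highest library. Mylip, Abca1 and Abcg1 stand apart at the top, and Pmvk and Hsd17b7 show the widest gaps between colours.

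Pmvk (ENSMUSG00000027952.16, chr3:89454541-89469013 in GRCm38), which phosphorylates mevalonate phosphate, changed most among the members in each arm. Values are in the order of the replicate numbers. In CON:CON its level was 3.04, 1.32, 2.5 and 3.28 CPM after saline and 49, 3.98, 39.4 and 10.5 after LPS. All 4 LPS libraries were above all 4 saline libraries, with replicates 1 and 4 far above replicate 2. In MIA:CON it was 3.13, 4.83, 3.55 and 5.41 after saline, and 7.3 at the lowest, 15.4 at the median and 30.8 at the highest of 6 LPS libraries, again with no overlap. In CON:PLX it was 2.8, 2.21, 4.02 and 4.22 after saline, and 3.18, 17.1 and 89.6 (lowest, median, highest) after LPS. Replicate 2 was the low LPS library there, inside the saline range, and replicate 1 the high one. In MIA:PLX it was 3.08, 1.79 and 3.75 after saline, and 13.1, 25.8 and 48.3 after LPS, with no overlap. The log2 change was 3.30 ± 0.73 (SE) in CON:CON (adjusted p 0.00121), 1.88 ± 0.68 in MIA:CON (0.0394), 3.04 ± 0.67 in CON:PLX (0.000734) and 3.28 ± 0.80 in MIA:PLX (0.00292). The MIA:CON call was lost without any 1 of LPS replicates 1, 4 and 5 or of the 4 saline replicates (log2 change 1.60 to 2.03), and the other calls held without each library in turn. With no filter on low counts, or with both marked libraries included, the MIA:CON call was lost as well.

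Hsd17b7 (ENSMUSG00000026675.12, chr1:169949535-169969241), which reduces the keto group left by removal of a methyl group from lanosterol derivatives, separated the injections completely in the libraries used. In CON:CON it was 3.74, 3.29, 5 and 2.27 CPM after saline and 41.8, 10.5, 11 and 9.83 after LPS. In MIA:CON it was 4.57, 2.19, 3.55 and 5.1 after saline and 8.43, 11.1 and 29.6 (lowest, median, highest) after LPS. In these arms, replicate 1 was the high LPS library. In CON:PLX it was 4.79, 5.97, 2.68 and 3.89 after saline and 12, 13.7 and 40.6 after LPS, and in MIA:PLX 1.96, 5.36 and 5.63 after saline and 11.9, 16 and 17.4 after LPS. Each of the 22 LPS libraries was thus above each of the 15 saline libraries. The marked saline library MIA_PLX_SAL replicate 1, which was left out, would break this order. With all 39 libraries scaled together it held 9.55 CPM, above the LPS library MIA_CON_LPS replicate 6 at 8.79. The log2 change was 2.35 ± 0.47 (SE) in CON:CON, 1.75 ± 0.45 in MIA:CON, 2.11 ± 0.43 in CON:PLX and 1.83 ± 0.50 in MIA:PLX, with adjusted p from 0.000231 to 0.00675. Without CON_CON_LPS replicate 1 the CON:CON change was 1.55 and still passed. Without MIA_PLX_SAL replicate 2 the MIA:PLX change was 1.45 and did not pass.

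Sqle (ENSMUSG00000022351.14, chr15:59315077-59331192), the oxygenase that turns squalene into its epoxide, rose by a steadier amount. In CON:CON it was 2.57, 2.63, 2.81 and 3.54 CPM after saline and 8.3, 6.33, 8.19 and 6.98 after LPS, with no overlap. In MIA:CON it was 3.61, 2.63, 3.23 and 4.46 after saline and 3.65, 8.01 and 10.9 (lowest, median, highest) after LPS, so that 1 LPS library lay within the saline range. In CON:PLX it was 5.39, 3.76, 1.56 and 3.89 after saline and 5.83, 6.68 and 12.1 after LPS, with no overlap, and in MIA:PLX 1.68, 4.64 and 2.19 after saline and 3.84, 8.62 and 11.4 after LPS, with overlap. The log2 change was 1.35 ± 0.37 (SE), 1.09 ± 0.35, 1.09 ± 0.33 and 1.56 ± 0.40 in the 4 arms (in the order above), with adjusted p from 0.00396 to 0.0191. The call was lost without MIA_CON_SAL replicate 2 or 3 (1.001 to 1.052), without CON_PLX_SAL replicate 3 (0.83) and without MIA_PLX_SAL replicate 2 (1.27). The MIA:CON call was also lost with no filter on low counts and with only the compared groups in the fit.

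**Figure D3:**
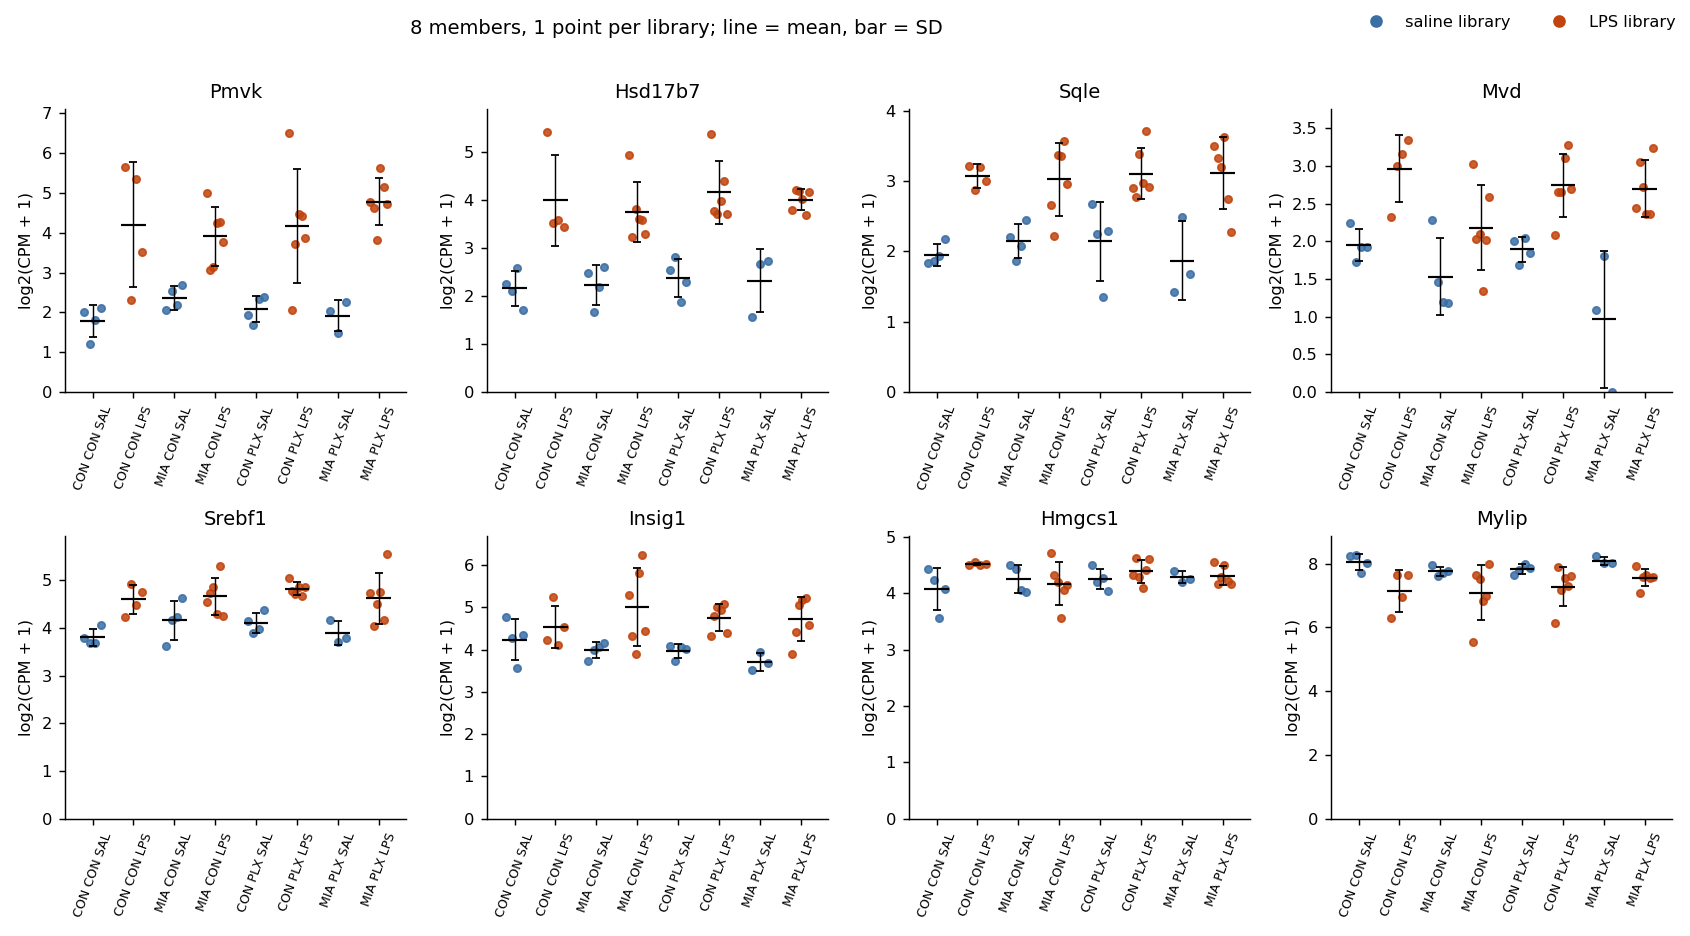
Level of 8 members as log2(CPM + 1), 1 point per library, in the 8 groups (blue saline, red LPS). Black lines are group means and bars the SD. Hsd17b7 shows no overlap between colours, Hmgcs1 shows nearly level groups, and Mylip lies lower in most LPS libraries.

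Other enzymes of the mevalonate part were called in fewer arms. Mevalonate diphosphate decarboxylase (Mvd) was 3.74, 2.31, 2.81 and 2.78 CPM after saline and 4.02, 7.03, 7.93 and 9.2 after LPS in CON:CON, a log2 change of 1.25 ± 0.45 (SE, adjusted p 0.0369). In CON:PLX it was 3, 2.21, 3.13 and 2.6 after saline and 3.22, 5.4 and 8.7 (lowest, median, highest) after LPS, a change of 1.10 ± 0.41 (0.0396), and in MIA:PLX 1.12, 2.5 and 0 after saline and 4.14, 5.01 and 8.45 after LPS, a change of 2.22 ± 0.54 (0.00281). In these 3 arms no LPS library was as low as a saline library. The CON:CON call was lost without LPS replicates 2, 4 or 5 or saline replicates 2, 3 or 4 (1.10 to 1.25), and the CON:PLX call without LPS replicates 4 or 5 or any saline replicate (0.96 to 1.17). The MIA:PLX change was 1.64 to 3.17 without each library in turn and passed each time, with the lowest value without saline replicate 4, the library at 0. With both marked libraries included it was 1.16 and did not pass (adjusted p 0.093). In MIA:CON the change was 0.83 ± 0.45 and did not pass (adjusted p 0.178). Mevalonate kinase (Mvk), which acts before Pmvk, was 1.87, 2.63, 0.63 and 2.27 CPM after saline and 6.96, 5.86, 7.68 and 1.9 after LPS in CON:CON, where LPS replicate 5 lay among the saline values (log2 change 1.58 ± 0.45, adjusted p 0.0094). Its change was 0.13, 0.77 and 0.86 in the other 3 arms and passed in none of them.

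Of the members that open the pathway, Acat2 and Hmgcs1, neither was called in any arm. The rate-limiting reductase, which acts next, is not among the members, so its change is not covered here. Hmgcs1, which makes the substrate of the rate-limiting reductase, had log2 changes of 0.43, -0.07, 0.14 and 0.04 in the 4 arms (in the order above). In CON:CON its 4 LPS libraries lay within 21.7 to 22.5 CPM and its saline libraries within 10.9 to 20.6, so the groups did not overlap although the adjusted p was 0.123. The 95% interval of its change reached at most 0.50 in the other 3 arms, which leaves out changes as large as those of Pmvk, Hsd17b7 or Sqle there. The log2 changes of uncalled enzymes ran over the arms from -0.12 to 0.67 for Acat2, a thiolase, from 0.55 to 0.81 for the isomerase Idi1 and from -0.05 to 0.54 for farnesyl diphosphate synthase (Fdps). The exons of Fdps share 26.7% of their bases with another gene model on the same strand, which bears on its counts.

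At the entry to sterols, squalene synthase (Fdft1) rose in 2 arms and lanosterol synthase (Lss) in 1. Fdft1 was 5.38, 6.59, 5.94 and 5.81 CPM after saline and 11, 10.1, 12.5 and 15.2 after LPS in CON:CON, a log2 change of 1.04 ± 0.33 (SE, adjusted p 0.0183). In MIA:PLX it was 8.69, 10.4 and 6.25 after saline and 11.2, 17.3 and 43.5 (lowest, median, highest) after LPS, a change of 1.29 ± 0.34 (0.00475). Neither arm showed overlap, and MIA_PLX_LPS replicate 5 was the high library, without which the change was 0.93 and still passed. The CON:CON call was lost without LPS replicate 5 or saline replicate 1 (0.92 to 0.99). Of Fdft1's exon bases, 18.3% overlap Ctsb, a lysosomal protease gene on the opposite strand, and these libraries keep no strand. Ctsb itself rose in CON:PLX (0.49), MIA:PLX (0.50) and MIA:CON (0.62), was not called in CON:CON, and its part in the Fdft1 counts was not tested. Lss, which closes the rings of lanosterol, was 7.25, 7.25, 9.06 and 9.34 CPM after saline and 30.3, 7.97, 29.2 and 17.8 after LPS in CON:CON, with LPS replicate 2 inside the saline range (1.37 ± 0.40, adjusted p 0.0115). Its call was lost without LPS replicate 1 (1.15). In the other 3 arms its change was 0.85, 0.77 and 1.03 and missed the threshold (adjusted p 0.0764 to 0.104).

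Among the enzymes that turn lanosterol into cholesterol, only Hsd17b7 and, in 1 arm, Ebp passed the test. The isomerase Ebp was 8.59, 6.41, 10.5 and 10.4 CPM after saline and 7.96, 15.5 and 20.4 (lowest, median, highest) after LPS in CON:PLX. LPS replicate 1 lay among the saline values, the log2 change was 0.77 ± 0.30 (SE, adjusted p 0.0492), and the call was lost without any 1 library other than LPS replicate 1 (0.63 to 0.86). Log2 changes short of a call ran from -0.19 to 0.37 for the lanosterol demethylase Cyp51, from -0.12 to 0.48 for the methylsterol oxidase Msmo1 and from -0.28 to 0.59 for its partner Nsdhl. They ran from 0.06 to 0.54 for the desaturase Sc5d and from 0.16 to 0.51 for Dhcr7, which makes cholesterol in the final step. The sterol reductase Tm7sf2 had negative changes in 3 arms (-0.40 in CON:CON, -0.69 in CON:PLX, -0.90 in MIA:PLX) and 0.53 in MIA:CON, none past the threshold. It was called lower in CON:PLX without LPS replicate 3 and in MIA:PLX without LPS replicate 5.

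Of the sterol sensing genes, Srebf1 rose in 3 arms. It was 12.9, 11.9, 11.9 and 15.7 CPM after saline and 17.9, 29.3, 21.5 and 26 after LPS in CON:CON, with no overlap (log2 change 0.85 ± 0.26, SE, adjusted p 0.0143). In CON:PLX it was 16.8, 13.9, 14.7 and 19.8 after saline and 24.4, 27.3 and 32 (lowest, median, highest) after LPS, also with no overlap (0.75 ± 0.24, 0.0127). In MIA:PLX it was 17.1, 12.1 and 12.8 after saline and 15.6, 23.6 and 46.1 after LPS, with overlap (0.82 ± 0.27, 0.0254). The CON:CON call was lost without LPS replicate 2 (0.73), and the MIA:PLX call without LPS replicate 6 or saline replicates 3 or 4 (0.58 to 0.75). Srebf2, the SREBP gene tied most closely to cholesterol synthesis, was 15.9, 14.5, 12.9 and 13.4 CPM after saline and 13.5, 20.2 and 34.9 after LPS in MIA:CON (0.63 ± 0.21, 0.0281). In MIA:CON the Srebf1 value was 0.54 and was not called. The Srebf2 call was lost without LPS replicates 1 or 4 or saline replicates 2, 3 or 4 (0.47 to 0.65), and the change was 0.44 to 0.56 and not called in the other arms. Scap had values of 0.04 to 0.28 and was called in none.

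The 2 Insig genes went in opposite directions in MIA:CON. Insig1, itself switched on by SREBPs, was 12.3, 14.9, 15.8 and 16.9 CPM after saline and 13.9, 29.7 and 74.7 (lowest, median, highest) after LPS in that arm (log2 change 1.30 ± 0.35, SE, adjusted p 0.00548). Its call there held without each library in turn and was lost with only the compared groups in the fit. LPS replicates 5 and 4 were the high libraries, at 74.7 and 55.6, and 1 library lay in the saline range. In MIA:PLX it was 10.4, 14.3 and 11.9 after saline and 14, 27.8 and 36.2 after LPS (1.15 ± 0.39, 0.0301), a call lost without LPS replicates 3, 4 or 5 or any saline replicate (1.03 to 1.25). The uncalled Insig1 values were 0.31 in CON:CON and 0.85 in CON:PLX, where its adjusted p was 0.0507. Insig2 was 22.9, 29, 24.2 and 25.5 CPM after saline and 5.4, 12.3 and 23.3 after LPS in MIA:CON and fell by 0.90 ± 0.30 on the log2 scale (adjusted p 0.025). LPS replicates 1, 4 and 5 lay between 5.4 and 7.11, far below the other 3. The call was lost without any of those 3, or without saline replicates 2 or 4 (-0.90 to -0.74). The Insig2 change was -0.55, -0.35 and -0.49 in CON:CON, CON:PLX and MIA:PLX, none of them called.

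Of the uptake and efflux genes, Stard4 and Nr1h2 rose, in 1 arm each. Mylip was 299, 307, 208 and 261 CPM after saline and 78.2, 199, 123 and 201 after LPS in CON:CON, so that each LPS library was below each saline library. Its log2 change there was -0.84 ± 0.32 (SE) with an adjusted p of 0.0525, and it was called lower in that arm with RLE scaling (0.039) and by DESeq2 (0.0265). In the other 3 arms, in the order above, the change was -0.50, -0.47 and -0.51 and was not called. Stard4, which carries sterol between membranes, was 2.24, 1.07 and 0.313 CPM after saline and 0.768, 4.44 and 5.91 (lowest, median, highest) after LPS in MIA:PLX, with overlap (1.72 ± 0.58, adjusted p 0.0297). That call rests on 1 to 18 counts per library and was lost without LPS replicate 3 or saline replicates 3 or 4 (1.27 to 1.62). The Stard4 values were 0.56 to 0.91, not called, in the other arms. The log2 changes of the exporters were 0.07 to 0.30 for Abca1 and 0.22 to 0.50 for Abcg1, and neither was called. Their 95% intervals ended at 0.62 for Abca1 and 1.05 for Abcg1 at the highest. Nr1h2 was 16.8, 14.9, 13.6 and 12.7 CPM after saline and 20.3, 28.2 and 39 after LPS in MIA:CON, with no overlap (0.97 ± 0.26, 0.00561), and its values of 0.54 to 0.62 in the other 3 arms were not called. GENCODE M21 lists a processed pseudogene of it, Nr1h2-ps, and whether the estimated counts split reads between them was not tested.

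By role, the mean log2 CPM of the 18 synthesis genes separated the injections in every arm. It was 2.59 ± 0.11 (SD, n = 4), 2.69 ± 0.16 (n = 4), 2.74 ± 0.06 (n = 4) and 2.65 ± 0.11 (n = 3) in the saline groups of the 4 arms, in the order above. After LPS it was 3.25 ± 0.17 (n = 4), 3.08 ± 0.08 (n = 6), 3.30 ± 0.18 (n = 6) and 3.31 ± 0.15 (n = 6). The highest saline library was at 2.90 and the lowest LPS library at 2.98. This mean joins Pmvk, Hsd17b7 and Sqle, called higher in all 4 arms, with 10 enzymes called in none. Its rise therefore does not show that each enzyme rose, and the part of single genes in it was not tested. The median log2 change of the 18 genes was 0.51, 0.354, 0.63 and 0.545 in the 4 arms, with 15, 14, 17 and 15 changes positive. The mean over the 3 tested efflux genes did not overlap in MIA:CON (at most 6.72 after saline, at least 6.89 after LPS) and overlapped in the other arms. The sensing mean overlapped in 3 arms and the mean of the 2 uptake genes in all 4. That last mean joins Mylip, whose log2 change was negative in all 4 arms, with Stard4, whose change was positive in all 4. Its overlap therefore does not show that the 2 genes stayed level.

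**Figure D4:**
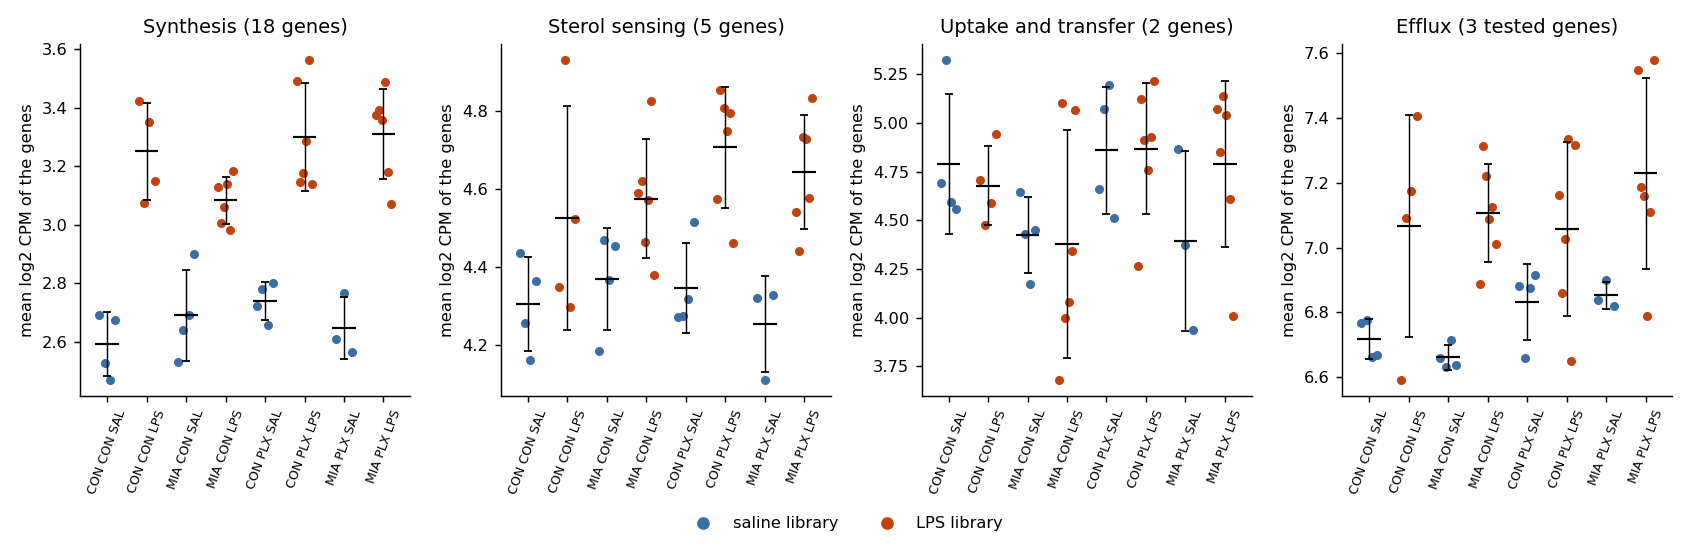
Mean log2 CPM of the members of each role, 1 point per library, in the 8 groups (blue saline, red LPS), with group means and SD. Only the synthesis panel shows every LPS library above every saline library, with 2.90 and 2.98 at the boundary.

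Markers of other cells also moved with LPS. Summed over 6 genes each, monocyte markers ran from 2.63 to 17.2 CPM after saline and from 10.7 to 633 after LPS, and neutrophil markers from 0 to 67.4 and from 2.78 to 133. In the order of arms above, 4, 4, 3 and 4 of 5 tested monocyte markers and 3, 5, 1 and 2 of 5 tested neutrophil markers rose, and 1 monocyte marker fell in CON:PLX and 1 in MIA:PLX. Oligodendrocyte lineage markers, from cells that make much cholesterol, ran from 68.7 to 116 and from 37.1 to 126, with 0 of 6 tested called in any arm. Astrocyte markers ran from 134 to 747 and from 85.3 to 339, and of 5 tested 1 rose and 1 fell in MIA:CON. Neuron markers ran from 16.9 to 44.3 and from 4.09 to 66 (1 of 5 tested rose, in CON:PLX), endothelial and mural markers from 22 to 47.4 and from 6.64 to 31 (1 of 3 tested fell in each arm but MIA:CON), and border-associated macrophage markers from 27.8 to 89.9 and from 5.92 to 184 (0 of 5 called in any arm). Erythroid markers ran from 0 to 84.2 and from 0.185 to 7.06, and the 1 tested fell in CON:PLX. Of the 8 microglial markers, 4, 3, 4 and 6 fell in the 4 arms and 0 rose. Over the arms, 11.8% to 17.5% of all tested genes were called higher and 9.84% to 14.0% lower. No marker of these lists was at 0 in all libraries. The part of such cells in the members' changes was not tested. In CON_CON_LPS replicate 1, CON_PLX_LPS replicate 1 and MIA_CON_LPS replicate 1, the highest libraries of their groups for Pmvk and Hsd17b7, monocyte markers summed to 18.5, 40.9 and 10.7 CPM, below the LPS median of 146, and microglial markers to 7010, 6830 and 8150 CPM, below the LPS median of 9800. Without these 3 libraries, 9 members were called higher in CON:CON (Abca1 added, and Mylip called lower), 5 in MIA:CON (Srebf2 lost, and Insig2 no longer called lower), 7 in CON:PLX (Insig1 added) and 9 in MIA:PLX (Lss added).

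Within the LPS groups, Pmvk varied from 3.18 to 89.6 CPM, and 3 of 27 other tested members (11.1%) correlated with it positively and 4 (14.8%) negatively, shares near those of all 13419 genes correlated (10.4% and 13.7%). Without the 3 libraries that deviate together, the values centred again over the other 19, 2 members correlated positively and 0 negatively (4.02% and 4.56% of all genes). This comparison was chosen after the values were seen. Over the 22 LPS libraries, with each gene centred on its group mean, Lss followed Pmvk with Pearson's r of 0.89 and Spearman's rho of 0.88 (permutation p 1e-05 and 3e-05, the former the smallest 99999 reassignments within groups can give; adjusted over 13419 genes, 0.000839 and 0.00173). Without the 2 libraries farthest from the median, CON_PLX_LPS replicates 1 and 2, r was 0.86, and without the 3 libraries it was 0.86 (adjusted p 0.00908). For r without those 2, here and below, values stayed centred on the means of the full groups. The desaturase Sc5d had an r of 0.75 and a rho of 0.79 (p 2e-05 and 6e-05, adjusted 0.00113 and 0.00221, r 0.79 without those 2), and without the 3 libraries r was 0.80 (adjusted p 0.0078). Hsd17b7 had an r of 0.65 and a rho of 0.53 (p 0.00951 and 0.0234, adjusted 0.0426 and 0.0835, r 0.55 without those 2). Without the 3 libraries r was 0.15 (adjusted p 0.713), so this relation rests on them, and it also missed the threshold without MIA_CON_LPS replicate 6 (r 0.65, adjusted p 0.0501). In the other direction, Mylip had an r of -0.73 and a rho of -0.72 (p 4e-04 and 0.00219, adjusted 0.00517 and 0.0174, r -0.64 without those 2), and without the 3 libraries r was -0.53 and did not pass (adjusted p 0.16). Ebp (r -0.68), Dhcr7 (r -0.63) and Insig2 (r -0.53) passed an adjusted p of 0.05 by both measures, but without the 3 libraries r was -0.45, -0.31 and -0.50 and none passed (adjusted p 0.121 to 0.378). The relation is broad: 1392 genes correlated positively and 1836 negatively with Pmvk at that threshold, 15 genes had a higher r than Lss, and Tmem119 had an r of -0.89 (-0.84 without the 3 libraries). The 5 genes with the highest r were Il18rap (0.95), Cd47 (0.93), Gramd1b (0.92), Ankrd16 (0.92) and Galnt6 (0.91).

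**Figure D5:**
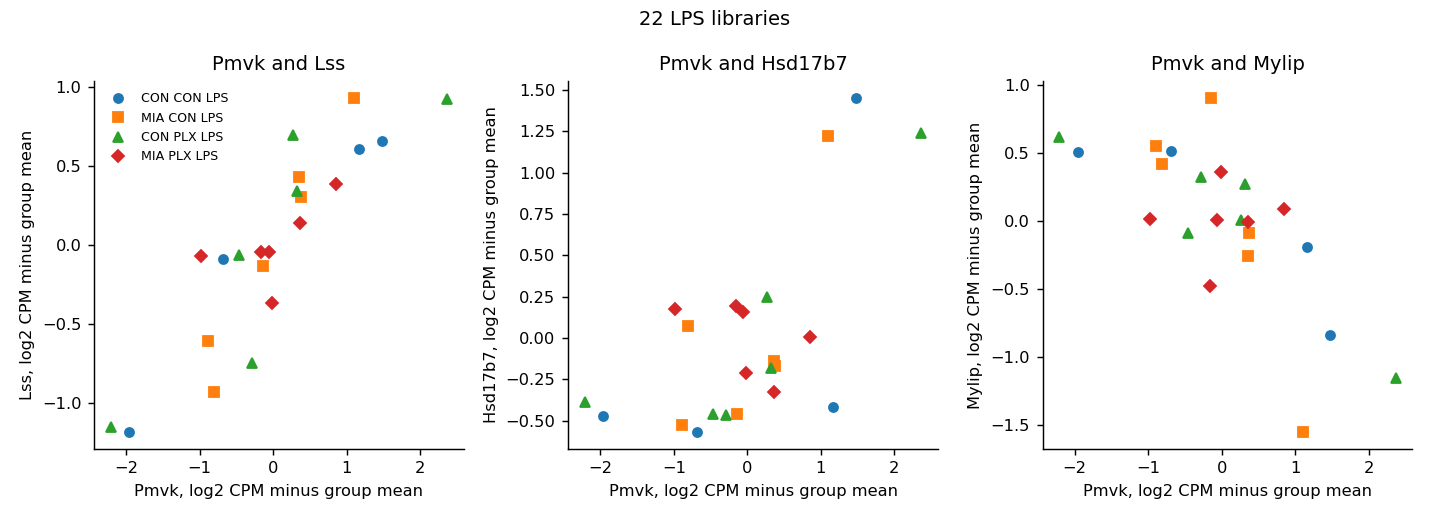
Lss, Hsd17b7 and Mylip (vertical axes) against Pmvk (horizontal axes) in the 22 LPS libraries, all as log2 CPM minus the group mean, with 1 symbol per group. Lss rises with Pmvk over the whole range (r 0.89), the high Hsd17b7 values sit in 3 libraries, without which r is 0.15, and Mylip is lower where Pmvk is high (r -0.73, and -0.53 without the 3).

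The neighbouring pathways were read from lists chosen with earlier results known. Among all tested genes, 13.7%, 14.5%, 17.5% and 11.8% were called higher in the 4 arms (in the order above). The shares called lower were 9.84%, 10.9%, 14.0% and 10.4%. The lists are short, and whether their counts differ from these shares was not tested. Of 11 fatty acid and lipid genes under SREBP or liver X receptor control, 3 rose in each arm, and these were fatty acid synthase (Fasn, log2 change 1.61 to 1.81), acetyl-CoA carboxylase (Acaca, 0.98 to 1.36) and the elongase Elovl5 (1.42 to 1.55). Fasn went from 22 ± 3.66 (SD, n = 4) to 69.2 ± 23.5 CPM (n = 4) in CON:CON. The desaturase Fads1 fell in all 4 arms (by 0.83 to 1.45 on the log2 scale), and Fads2 fell in CON:CON, where its LPS libraries held 0 to 4 counts and its saline libraries 5 to 26. The median change of this list was 0.03, -0.11, 0.09 and 0.42 in the 4 arms. Of 15 genes of sterol storage, lysosomal release, transfer and oxysterols, 13 were tested, and 4, 4, 5 and 3 rose and 0, 1, 2 and 2 fell in the 4 arms (in the order above). The median change of this list was 0.40, 0.29, 0.41 and 0.46. The cholesteryl ester hydrolase Nceh1 (1.46 to 1.98) and the esterifying enzyme Soat1 (0.883 to 1.001) rose in all 4 arms. Osbpl9 rose in 3, while Npc2, which hands over lysosomal cholesterol, and the lipoprotein receptor Scarb1 rose in 2 each. Lysosomal acid lipase (Lipa) fell in 3 arms (by 0.54 to 0.71), Cyp27a1, which makes an oxysterol, fell in CON:PLX by 1.40, and Stard3 fell in MIA:PLX by 0.97. Ch25h, which makes 25-hydroxycholesterol, was called higher in CON:PLX, where replicate 1 held 1321 counts, the other 5 LPS libraries 0 to 14 and the saline libraries 0 or 1. Of 8 isoprenoid branch enzymes, 0, 0, 1 and 2 rose and 0, 1, 1 and 0 fell. Those that rose were Pdss1 (1.13 in CON:PLX, 1.66 in MIA:PLX) and Fntb (1.37 in MIA:PLX), and those that fell were Fnta (-0.58 in MIA:CON) and Ggps1 (-0.29 in CON:PLX).

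Neither the prenatal term nor PLX was called for any member. MIA was compared with CON, without PLX, after saline (0 of 28 called by edgeR, 0% of all genes, 0 members at an unadjusted p under 0.05) and after LPS (0 called, 0% of all genes, 3 unadjusted). With PLX the counts were 0 after saline (0%, 2 unadjusted) and 0 after LPS (0.0149% of all genes, 1 unadjusted). PLX was compared with none in prenatal CON after saline (0 called, 0%, 0 unadjusted) and after LPS (0 called, 0.00745%, 1 unadjusted), and in prenatal MIA after saline (0 called, 0%, 0 unadjusted) and after LPS (0 called, 0%, 2 unadjusted). DESeq2 also called 0 members in each. These contrasts share libraries, and each value stands for its own contrast. The difference of LPS changes between arms was tested as an interaction and called 0 members and 0% of all genes in each of 4 tests by edgeR (1, 1, 0 and 2 members at an unadjusted p under 0.05), and 0 members by DESeq2. For Pmvk the LPS change in MIA:CON minus that in CON:CON was -1.42 ± 0.99 (SE) on the log2 scale, with a 95% interval of -3.36 to 0.52 and an adjusted p of 1. That interval includes 0 and differences as large as the Pmvk change in MIA:CON itself.

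Fdft1 and Tm7sf2 had the smallest unadjusted p among members in these contrasts. After LPS, Fdft1 had a median of 17.3 CPM in MIA_PLX_LPS (11.2 to 43.5), 9.77 in CON_PLX_LPS (7.67 to 13.1) and 9.32 in MIA_CON_LPS (4.81 to 16). MIA against CON with PLX gave a log2 difference of 1.04 ± 0.26 (SE, unadjusted p 0.000289, adjusted p 0.254), and PLX against none in prenatal MIA gave 1.03 ± 0.26 (0.000366 and 0.164). Tm7sf2 had a median of 3.3 CPM in MIA_PLX_LPS (1.54 to 6.21) and 7.5 in MIA_CON_LPS (4.78 to 14.9), a difference of -1.26 ± 0.34 (0.000569 and 0.186). The groups overlapped in all 3 comparisons. Of Tm7sf2's exon bases, 12.1% are shared with Vps51. For Hsd17b7 the 95% intervals of the 4 differences after LPS lay within -1.21 to 0.90, and for Sqle within -0.61 to 0.71.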

How the data were processed

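Estimated counts per gene were deposited by the authors for 39 libraries. The submitters' processing notes list DESeq2, RSEM and STAR but no version and no role. Which build and annotation they used is not given in the sources used here. Per the labels' protocols, cDNA was amplified linearly with no strand information and no ribosomal RNA depletion. Gene symbols, positions and exon lengths were taken from GENCODE M21 (GRCm38), in which 55141 of 55487 identifiers matched.

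Of the 39 libraries, 37 were used, and 2 whose titles mark them as excluded were left out. Counts were rounded. Genes were kept by filterByExpr (minimum count 10, minimum total 15), and edgeR 4.0.16 (R 4.3.3) fitted 1 mean for each of the 8 groups by quasi-likelihood with TMM and robust dispersion. Tests were two-sided, with p-values adjusted in each contrast (Benjamini-Hochberg, 13420 genes). SE is the log2 change divided by the square root of F, and 95% intervals are normal intervals from it. CPM are TMM-scaled, and log2 CPM use a prior count of 2. The fitting code was tested on simulated data. Alternatives were RLE scaling, DESeq2 1.42.0, no filter, both marked libraries included, only the compared groups in the fit, a replicate block, leaving out each library, and, added after seeing the data, leaving out 3 libraries that deviate together (also for the correlations, as was MIA_CON_LPS replicate 6). Correlations used permutation within groups, two-sided.

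All 29 members are named. Of the other lists, the rule named up to 4 called genes with the smallest p and called genes against the list's median; Scarb1, Ch25h and the genes most like Pmvk were added after values were seen. The members and lists were chosen with earlier results of these data known. The result of 1 further list is not reported here. Counting error grows at the low counts of many enzymes, and the 37 totals ran from 1510020 to 5746239.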

Additional observations from a re-analysis of the deposited data

Results flagged for a closer look

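In the 14 members called in at least 1 arm, 98 groups of 4 to 6 libraries were examined for a library far from the rest, and 9 were found. Chance would flag about 1 in 20 groups if CPM values were normally distributed. Whether they are was not tested, so the number expected here is not known. Pmvk stood at 89.6 CPM in CON_PLX_LPS replicate 1, with the other 5 libraries at 3.18 to 21.2. Hsd17b7 stood at 41.8 CPM in CON_CON_LPS replicate 1 (others 9.83 to 11), at 29.6 in MIA_CON_LPS replicate 1 (others 8.43 to 13) and at 40.6 in CON_PLX_LPS replicate 1 (others 12 to 20.1). These are the 3 libraries that deviate together over all genes. Nr1h2 stood at 41.7 CPM in CON_PLX_LPS replicate 1 (others 15.4 to 24). Insig2 stood at 33.1 CPM in CON_PLX_LPS replicate 2, above the others at 14.4 to 21.4, and at 8.28 in MIA_PLX_LPS replicate 5, below the others at 19.2 to 23.4. Fdft1 stood at 43.5 CPM in MIA_PLX_LPS replicate 5 (others 11.2 to 22.9), and Srebf1 at 46.1 in MIA_PLX_LPS replicate 6 (others 15.6 to 25.9).

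The saline library marked as excluded, MIA_PLX_SAL replicate 1, held Pmvk at 8.42 CPM and Hsd17b7 at 9.55 CPM, when all 39 libraries were scaled together. The highest saline library in use held 5.39 and 5.94. MIA_CON_LPS replicate 6, from which it differed by little more than counting error, held 12.6 and 8.79 on the same scale. The marked LPS library, CON_CON_LPS replicate 3, held Pmvk at 4.03, Sqle at 2.48 and Hsd17b7 at 10.9 CPM. The highest saline library in use held 5.39, 5.37 and 5.94, so only Hsd17b7 lay above the saline range there.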

How the results depend on the processing

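Hsd17b7, Mylip, Ebp, Dhcr7 and Insig2 no longer passed the test of correlation with Pmvk without the 3 libraries, and Lss and Sc5d did. No result changed direction under any alternative run. The count of members called lower in CON:CON was 0 and became 1 (Mylip) with RLE scaling, with DESeq2, with the replicate block and without the 3 libraries that deviate together. In MIA:CON the count of 6 higher became 3 with no filter and 3 with only the compared groups in the fit, and the count of 1 lower became 0 with only the compared groups and without the 3 libraries. In MIA:PLX the count of 8 higher became 5 with no filter, and the count of 0 lower became 1 (Mylip) with only the compared groups. The cause was not tested. Leaving out each library in turn gave 6 to 8 members higher in CON:CON, 3 to 7 in MIA:CON, 3 to 7 in CON:PLX and 5 to 8 in MIA:PLX, with 0 to 1 lower in each arm, and 0 in every MIA, PLX and interaction contrast. Of the 29 calls, 9 were lost with no filter, 6 with only the compared groups and 5 with both marked libraries. Without the 3 libraries 2 were lost, with RLE 1 and with DESeq2 0. No filter cost the calls of Mvd in CON:CON and CON:PLX, Ebp in CON:PLX, and Sqle, Srebf2 and Pmvk in MIA:CON. It also cost those of Srebf1, Stard4 and Insig1 in MIA:PLX. With only the compared groups, Sqle, Srebf2, Insig1 and Insig2 in MIA:CON and Srebf1 and Stard4 in MIA:PLX were lost.

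Replicate numbers did not pair the LPS and saline libraries of an arm: same-numbered deviations correlated at -0.07 to 0.14, and their best partner was their own number in 0 of 3, 1 of 4, 0 of 4 and 2 of 3 pairs. Between LPS groups, libraries numbered 1 correlated at -0.25 to 0.66 (6 pairs, median 0.24) and those numbered 2 at -0.20 to 0.56 (6 pairs, median 0.16). Those numbered 3 correlated at 0.135 to 0.227 (3 pairs, median 0.21). For numbers 4, 5 and 6 the medians were 0.05, 0.04 and 0.03. Libraries of different numbers correlated at -0.48 to 0.49 (150 pairs, median -0.02). With the replicate block, 6 members were higher in CON:CON, 6 in MIA:CON, 5 in CON:PLX and 7 in MIA:PLX, and 5 of the 29 calls were lost. RLE and DESeq2 moved the median of all genes by at most 0.05 on the log2 scale. With a prior count of 0.5, 4 of 32 role means moved by more than 1 SD, all of them synthesis means and all lower (2.45 to 2.97). Depth limits the low members: Stard4, Mvd, Mvk and Sqle rest on few counts per library.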
